A study of Mus musculus with 13 samples.

Results

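Fatty acid use in injured mouse muscle was followed through 43 genes of lipid uptake, storage, breakdown and oxidation and of their control by peroxisome proliferator-activated receptors (PPARs). They were chosen by name, with earlier results of these data known, and all 43 were among the 14911 genes of the table. The tissue was whole hamstring muscle of female C57BL/6 mice, taken on day 4 after the muscle was injured in every mouse with cardiotoxin (0.32 mg/kg, intramuscular), a toxin from snake venom that lyses fibres. Of these mice 4 were given saline and 9 were given dexamethasone, a synthetic glucocorticoid, at 10 mg/kg, both as daily intraperitoneal injections. Each mouse gave 1 library of polyadenylated RNA. By the submitters' account every dexamethasone mouse had bone in its injured muscle, while a saline mouse with bone was excluded, so drug and bone formation cannot be told apart here. Over the genes of the table, libraries held 25531487 to 34942266 reads. Values are log2 CPM, the log2 of counts scaled to an effective library size. That size was 0.876 to 1.00 times those reads in saline and 0.990 to 1.10 times in dexamethasone libraries. All libraries came from whole tissue, where fewer cells of a type and less RNA per cell cannot be told apart.

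Muscle takes up fatty acids that lipoprotein lipase frees from circulating triglyceride, and it also draws on its own lipid droplets. Acyl-CoA synthetases activate the fatty acids, the carnitine shuttle carries them into mitochondria, and the beta-oxidation enzymes shorten them step by step while electron transfer flavoprotein passes their electrons to the respiratory chain. PPAR alpha and PPAR delta, bound to fatty acids, switch on genes at every one of these steps together with the coactivator PGC-1 alpha. Angptl4, Pdk4, Cpt1a, Plin2 and Ucp3 are textbook PPAR targets, and several of them are also induced by glucocorticoids.

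Members moved both ways under dexamethasone. The lipase inhibitor Angptl4 rose most, and the lipases Lpl, Lipe and Pnpla2 and the droplet coat Plin2 rose less, whereas PPAR alpha, PGC-1 alpha, the muscle fatty acid binding protein Fabp3 and 11 of the 21 genes from the carnitine shuttle to electron transfer fell. By limma with Benjamini-Hochberg adjustment over all genes at 0.05, 9 of the 43 members rose and 16 fell. Over all 14911 genes 48.1% were called, 25.2% higher and 22.9% lower, so the share of members that rose, 20.9%, lay near the background and the share that fell, 37.2%, lay above it. The median log2 fold change was -0.12 over the members and 0.007 over all genes. Groups did not overlap at all for 13 members, 4 higher and 9 lower, or 30.2%, against 25.8% of all genes. The 21 genes from the carnitine shuttle to electron transfer gave 1 rise and 11 falls (median -0.20), and the other 22 gave 8 rises and 5 falls (median 0.13). With the mean of mature fibre markers in the model 2 members rose and 7 fell. With that of adipocyte markers 4 rose and 11 fell. Genes called over the whole table went from 7173 to 3691 and 4471. Lpl, Lipe and Pnpla2 were not called with either mean.

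**Figure D1:**
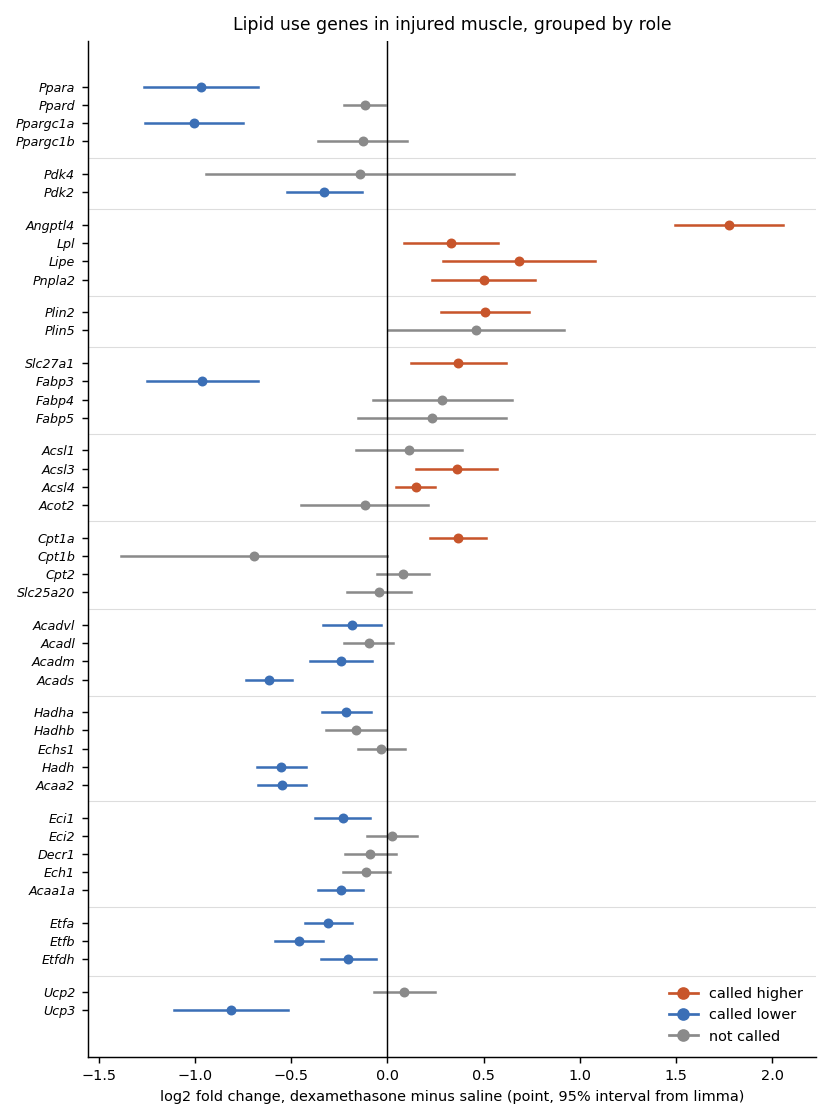
Each row is a gene, grouped by role, with its log2 fold change of dexamethasone against saline (point) and 95% interval from limma (line). Orange genes rose, blue genes fell and grey genes did not pass. Angptl4 at 1.77 stands alone on the right, and Ppara, Ppargc1a, Fabp3 and Ucp3 lie between -1.01 and -0.81.

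The tissue still held muscle fibre, fat and other cells, and the balance of their markers differed between the groups. Of 16 mature fibre markers 6 fell and 0 rose, and their summed level was 146811 to 218741 CPM in saline and 98866 to 147034 CPM in dexamethasone libraries. The median of their log2 fold changes was -0.39, against -0.42 with median centring and -0.13 with quantile normalisation of the libraries. The size of the fibre marker fall thus depended on how libraries were scaled. Of 8 adipocyte markers 6 rose and 0 fell, and their sum was 490 to 878 CPM in saline and 596 to 1428 CPM in dexamethasone libraries. Macrophage markers gave 4 rises and 1 fall of 12, with sums of 2148 to 3143 and 2563 to 3403 CPM. Endothelial markers gave 1 rise and 2 falls of 10, with sums of 370 to 433 and 354 to 439 CPM. All 10 lymphocyte markers fell, their sums going from 38.4 to 55.3 CPM in saline to 4.96 to 14.7 CPM in dexamethasone libraries. Neutrophil markers gave 1 rise and 2 falls of 9, and saline library 3 stood apart in them at 372 CPM. Fibroblast markers gave 1 rise and 2 falls of 8. Every marker of these lists had reads. The mature fibre and adipocyte lists are set beside the members further on, and the part of the other lists in the results was not tested.

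The letters before the transcription start were read for those members matched in RefSeq (GRCm38.p6), 35 of 43, all but Lpl, Fabp4, Fabp5, Angptl4, Decr1, Cpt1b, Acaa2 and Ppargc1b. A full PPAR element, AGGNCA repeated after 1 free base, occurred in 0 of their 41 windows of 250 bases, searched on both strands, and in 0.338% of 32851 windows of all genes. A glucocorticoid receptor element, GNACA and TGTNC parted by 3 free bases, occurred in 0 of 41 windows and in 0.387% of all. The hexamer AGGTCA, which nuclear receptors of this kind recognise and which is contained in one form of the PPAR element, occurred in 7 of 41 windows and in 14.0% of all. The 7 were Plin2 and Cpt1a, which rose, Ucp3, Acadm and Acadvl, which fell, and Echs1 and Plin5, which were not called. The sequences of Plin2, Cpt1a, Ucp3 and Acadm are shown because these genes moved in opposite directions with the same hexamer before their starts. They run 5′ to 3′ on the gene's strand from base 250 to base 21 before the start, and capitals mark the hexamer or its reverse complement.
Plin2, chr4:86670080-86670309, minus strand: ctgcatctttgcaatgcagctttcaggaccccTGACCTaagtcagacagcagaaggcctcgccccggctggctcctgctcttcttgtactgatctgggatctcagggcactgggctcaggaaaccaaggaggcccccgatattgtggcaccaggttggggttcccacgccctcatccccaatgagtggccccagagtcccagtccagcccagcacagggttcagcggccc
Cpt1a, chr19:3323051-3323280, plus strand: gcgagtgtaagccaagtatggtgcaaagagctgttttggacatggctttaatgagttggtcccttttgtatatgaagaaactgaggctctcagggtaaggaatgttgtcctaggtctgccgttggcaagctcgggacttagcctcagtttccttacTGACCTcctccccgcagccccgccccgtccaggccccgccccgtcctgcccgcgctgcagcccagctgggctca
Ucp3, chr7:100472741-100472970, plus strand: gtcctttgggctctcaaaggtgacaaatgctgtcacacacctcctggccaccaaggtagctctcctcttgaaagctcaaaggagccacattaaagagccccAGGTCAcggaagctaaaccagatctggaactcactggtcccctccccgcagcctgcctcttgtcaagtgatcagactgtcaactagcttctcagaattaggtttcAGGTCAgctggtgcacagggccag
Acadm, chr3:153944664-153944893, minus strand: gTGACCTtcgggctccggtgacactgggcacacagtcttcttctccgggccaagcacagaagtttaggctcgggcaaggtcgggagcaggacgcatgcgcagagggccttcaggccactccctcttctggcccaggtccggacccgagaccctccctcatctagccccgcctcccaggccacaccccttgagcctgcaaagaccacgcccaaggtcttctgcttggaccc
In Plin2 the hexamer began 218 bases before the start, in Cpt1a 94 bases, in Ucp3 149 and 44 bases, and in Acadm 249 bases. The Cpt1a stretch lies inside the longer GENCODE gene but outside its exons, and the Ucp3 stretch lies in an intron of the antisense gene Gm10603. Each match is a description of the letters alone.

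Of the 4 receptors and coactivators, 2 fell. Ppara encodes PPAR alpha, the receptor of fasting and fatty acid oxidation (chromosome 15, 85734983 to 85802819, GRCm38). It stood at 4.67, 4.35, 4.29 and 3.96 log2 CPM in saline mice 1, 2, 3 and 5 and at 3.01 to 3.76 (median 3.35) in the dexamethasone mice. Every dexamethasone mouse lay below every saline mouse, a 1.96-fold fall (log2 fold change -0.97 ± 0.14 SE, adjusted p 4.83e-05). Ppargc1a, which encodes PGC-1 alpha, the coactivator of mitochondrial biogenesis (chromosome 5, 51454250 to 51567726), was at 5.23, 5.17, 4.95 and 4.60 in saline and 3.69 to 4.20 (median 4.02) in dexamethasone libraries. It was 2.01-fold lower, again with no overlap (log2 fold change -1.01 ± 0.12 SE, adjusted p 8.82e-06).

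Their relatives gave no call. Ppard, the more widely expressed PPAR delta, was at 5.99, 5.90, 5.83 and 5.86 in saline and 5.65 to 5.90 (median 5.78) in dexamethasone mice, with 7 of 9 below every saline mouse and a log2 fold change of -0.12 (95% interval -0.22 to -0.01, adjusted p 0.0622). It passed as lower without dexamethasone library 1 (adjusted p 0.0453) or 5 (adjusted p 0.0368), and with median centring (adjusted p 0.0366) or quantile normalisation (adjusted p 0.0149) of the libraries. Ppargc1b, the sister coactivator PGC-1 beta, had a log2 fold change of -0.13 (95% interval -0.36 to 0.10). Saline library 5 was its lowest library, and without it Ppargc1b passed at -0.30 (adjusted p 0.00343).

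Among receptor partners and further PPAR-linked genes, 2 of 19 rose and 5 fell. Esrra, the estrogen-related receptor that works with PGC-1 alpha, was 1.42-fold lower and Rxrb, a retinoid X receptor partner, 1.18-fold lower, both without overlap. Pparg, the PPAR of adipocytes, rose 1.36-fold (adjusted p 0.0317). Klf15, a glucocorticoid-induced factor of lipid and amino acid use, was not called (log2 fold change -0.36 ± 0.17 SE, adjusted p 0.0973).

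Pyruvate dehydrogenase kinases hold back glucose oxidation when fatty acids are burned. Pdk4, the fasting-induced kinase, was at 7.83, 7.89, 7.52 and 7.39 in saline and 6.64 to 9.67 (median 7.37) in dexamethasone mice. The top value belonged to dexamethasone library 4 alone, the next being 7.61, and 5 of the 9 lay below every saline mouse. Library 4 was the highest dexamethasone library for most members, among them Angptl4, Plin2, Plin5, Cpt1a, Fabp3, Ucp3, Acadm, Hadha, Hadh and Acaa2. It was not the highest for Lpl, Lipe or Acads, and it was the lowest for Ppard, Ppargc1b and Fabp5. Over all libraries Pdk4 was not called (-0.14 ± 0.38 SE on the log2 scale, adjusted p 0.783). Without dexamethasone library 4 it was -0.41 ± 0.16 and passed as lower (adjusted p 0.0448). Pdk2, the constitutive muscle kinase, was at 9.12, 8.89, 8.75 and 8.64 in saline and 8.33 to 8.74 (median 8.51) in dexamethasone libraries, a 1.26-fold fall (adjusted p 0.00811) with 7 of 9 below all saline mice. In the pyruvate dehydrogenase complex, its other kinases and phosphatases and pyruvate import, 7 of 12 genes fell and 0 rose, among them the catalytic core Dlat (1.48-fold), Pdhb (1.42-fold) and Pdhx (1.37-fold).

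The triglyceride lipases and their inhibitor all rose, 4 of 4. Angptl4 encodes a secreted protein that inactivates lipoprotein lipase (Entrez 57875, chromosome 17, 33773750 to 33781830). It stood at 4.29, 4.78, 4.55 and 4.42 in saline and 5.86 to 6.71 (median 6.31) in dexamethasone mice. The gap between the groups exceeded the spread within either, and the 3.42-fold rise was the largest change among the members (log2 fold change 1.77 ± 0.13 SE, adjusted p 1.56e-07). Leaving out any 1 library kept it between 1.70 and 1.86. Lpl, lipoprotein lipase itself, was at 8.72, 8.67, 8.44 and 8.39 in saline and 8.62 to 9.28 (median 8.90) in dexamethasone mice, with 6 of 9 above all saline mice. That rise was 1.26-fold (adjusted p 0.026), and it did not pass without saline library 3 (adjusted p 0.0827) or 5 (adjusted p 0.0852).

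Inside cells, Pnpla2 encodes adipose triglyceride lipase, which takes the first fatty acid off a stored triglyceride, and Lipe encodes hormone-sensitive lipase, which takes the next. Pnpla2 rose 1.41-fold (7.86 ± 0.25 to 8.36 ± 0.24 log2 CPM; SD, n = 4 and 9; adjusted p 0.00393). Lipe rose 1.61-fold (5.85 ± 0.37 to 6.54 ± 0.37; SD, n = 4 and 9; adjusted p 0.00657). In both, 8 of the 9 dexamethasone mice lay above every saline mouse. An antisense gene overlaps 15.6% of the Lipe exons, and the strand setting of the counting is not given in the sources used here.

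Droplet coats rose in part. Plin2, which coats lipid droplets in most cells, was at 6.12, 6.36, 6.36 and 6.36 in saline and 6.61 to 7.31 (median 6.71) in dexamethasone mice, a 1.42-fold rise without overlap (adjusted p 0.00122). Plin5, the coat of oxidative muscle that ties droplets to mitochondria, had a log2 fold change of 0.46 (95% interval 0.0038 to 0.92, adjusted p 0.089), and passed without saline library 1 (adjusted p 0.0298) or dexamethasone library 2 (adjusted p 0.0244). Of 12 further droplet and lipolysis genes measured, 5 rose and 1 fell. Hilpda, which inhibits Pnpla2 and is itself a PPAR target, rose 1.47-fold without overlap, Plin1 of adipocyte droplets, which is also among the adipocyte markers, rose 1.72-fold, and Fitm1, a droplet-forming protein of muscle, was 1.48-fold lower.

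**Figure D2:**
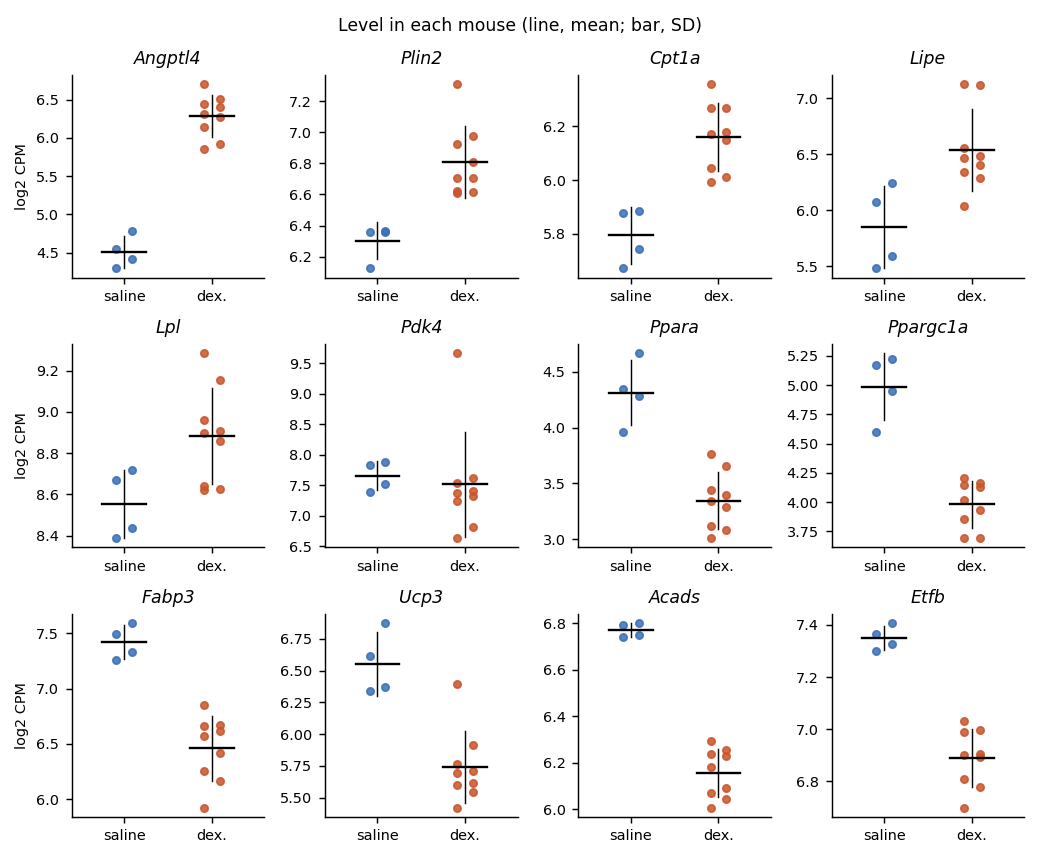
Log2 CPM of 12 members, with 1 point per mouse (blue, 4 saline; orange, 9 dexamethasone), the group mean (line) and SD (bar); each panel has its own vertical scale. Angptl4, Plin2 and Cpt1a separate upward and Ppara, Ppargc1a, Fabp3, Acads and Etfb downward, while a single dexamethasone mouse lifts Pdk4 to 9.67.

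Fatty acid entry and binding moved both ways. Slc27a1, a muscle fatty acid transport protein with synthetase activity, rose 1.29-fold (adjusted p 0.0162), but did not pass without saline library 3 (adjusted p 0.0621) or 5 (adjusted p 0.0677). Fabp3, the binding protein of heart and skeletal muscle, was at 7.60, 7.49, 7.33 and 7.26 in saline and 5.92 to 6.85 (median 6.57) in dexamethasone mice. No dexamethasone mouse reached the saline range, and Fabp3 was 1.95-fold lower (log2 fold change -0.96 ± 0.14 SE, adjusted p 3.9e-05). Antisense genes overlap 19.6% of its exons.

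The other binding proteins gave no call. Fabp4, of adipocytes, capillary cells and macrophages, was at 8.81, 8.68, 8.12 and 8.31 in saline and 8.35 to 9.27 (median 8.62) in dexamethasone mice, with a log2 fold change of 0.29 (95% interval -0.08 to 0.65). Fabp5, of epidermis and macrophages, was at 2.83, 2.80, 3.69 and 3.88 in saline and 3.20 to 3.95 (median 3.52) in dexamethasone mice, 8 of which lay within the saline range. Copies of Fabp5 elsewhere in the genome leave its reads uncertain. Per kilobase of GENCODE exon, Fabp3 was at 209 ± 22.3 CPM per kb in saline and 109 ± 21.0 in dexamethasone libraries (SD, n = 4 and 9). Fabp4 was at 81.1 ± 17.5 and 99.6 ± 24.0 on that scale (SD, n = 4 and 9), a distance within their spread in dexamethasone libraries. The Fabp4 exon length used, 4489 bases, equals its whole gene span, against 823 bases for Fabp3, so their order per kilobase is uncertain. In log2 CPM without a length, Fabp4 lay above Fabp3 in every library.

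Of 11 further uptake and activation genes 5 rose and 2 fell. Cd36, the main fatty acid translocase of muscle, fat and macrophages, stood at 7.38 ± 0.22 log2 CPM in saline and 8.33 ± 0.25 in dexamethasone libraries (SD, n = 4 and 9), a 1.94-fold rise without overlap (adjusted p 2.35e-05). Acsl6, a further acyl-CoA synthetase, was 1.37-fold lower, also without overlap. In fatty acid and triglyceride synthesis 8 of 15 genes rose and 0 fell. Scd1, the stearoyl-CoA desaturase, rose 2.13-fold, Acaca, which makes malonyl-CoA, 2.08-fold and Srebf1, the lipogenic transcription factor, 1.45-fold, each with overlapping groups.

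Acyl-CoA synthetases trap fatty acids in the cell. Acsl3, of droplets and endoplasmic reticulum, was at 4.94, 4.82, 5.36 and 5.42 in saline and 5.35 to 5.67 (median 5.47) in dexamethasone mice, a 1.28-fold rise (adjusted p 0.00702). Saline mice formed a lower and a higher pair, and 6 of 9 dexamethasone mice lay above both. Acsl4, which favours arachidonic acid, rose 1.11-fold without overlap (adjusted p 0.0194), but did not pass without saline library 3 (adjusted p 0.0615) or with quantile normalisation (adjusted p 0.0965). Acsl1, the synthetase linked to oxidation in muscle and to storage in fat, had a log2 fold change of 0.11 (95% interval -0.16 to 0.39). Acot2, a mitochondrial thioesterase that undoes the activation, had -0.12 (95% interval -0.45 to 0.21). Acot2 has a near copy in Acot1, so reads between them are uncertain.

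In the carnitine shuttle 1 of 4 genes rose. Cpt1a, the liver-type carnitine palmitoyltransferase of the outer membrane and the gate of mitochondrial oxidation (chromosome 19, 3322334 to 3385733), was at 5.67, 5.88, 5.74 and 5.88 in saline and 5.99 to 6.36 (median 6.17) in dexamethasone mice. All 9 lay above every saline mouse, a 1.29-fold rise (log2 fold change 0.37 ± 0.07 SE, adjusted p 0.000442). Cpt1b, the muscle-type enzyme of the same step, was at -0.83, -0.83, 0.27 and -0.90 in saline and -2.17 to -0.46 (median -1.16) in dexamethasone mice. These values rest on 13 to 34 reads in saline and 6 to 23 in dexamethasone libraries, and Cpt1b was not called (-0.69 ± 0.33 SE, adjusted p 0.0904). In GENCODE M21, 81.4% of the Cpt1b exons are shared with a second gene model on the same strand, Gm44502, and the handling of reads in both models is not given in the sources used here. Its level is therefore uncertain. Cpt2, of the inner membrane, and Slc25a20, the carnitine-acylcarnitine translocase between them, had log2 fold changes of 0.08 (95% interval -0.05 to 0.22) and -0.04 (95% interval -0.21 to 0.12).

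The acyl-CoA dehydrogenases open each round of oxidation and differ in the chain length they accept. Acads, for short chains, was at 6.79, 6.80, 6.75 and 6.74 in saline and 6.01 to 6.29 (median 6.18) in dexamethasone mice. Saline mice spanned 6.74 to 6.80 and every dexamethasone mouse was lower, a 1.53-fold fall (log2 fold change -0.61 ± 0.06 SE, adjusted p 7.22e-07). Acadm, for medium chains, was 1.18-fold lower (adjusted p 0.0146), and did not pass without saline library 1 (adjusted p 0.0735). Acadvl, for very long chains, was 1.13-fold lower (adjusted p 0.0428), and did not pass when saline library 1, 2 or 3 or dexamethasone library 2, 3, 5 or 7 was left out (adjusted p 0.0541 to 0.177) or without an intensity trend (adjusted p 0.0621). Acadl, for long chains, had a log2 fold change of -0.10 (95% interval -0.22 to 0.03). The exons of Acadvl overlap an antisense-strand gene, Dvl2, over 42.9% of their length.

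The next steps are run by the membrane-bound trifunctional protein and by soluble matrix enzymes, and 3 of these 5 genes fell. Hadha, the alpha subunit of the trifunctional protein, was 1.16-fold lower (adjusted p 0.00885), and Hadhb, its beta subunit, had a log2 fold change of -0.16 (95% interval -0.32 to -0.0045, adjusted p 0.0832), passing without saline library 5 (-0.24, adjusted p 0.0139) or with quantile normalisation (-0.18, adjusted p 0.0324). Hadh, the soluble 3-hydroxyacyl-CoA dehydrogenase for shorter chains, was 1.46-fold lower (7.27 ± 0.13 to 6.72 ± 0.09 log2 CPM; SD, n = 4 and 9; adjusted p 4.21e-06). Acaa2, the matrix thiolase, was at 7.23, 7.31, 7.11 and 7.17 in saline and 6.50 to 6.82 (median 6.68) in dexamethasone mice, 1.46-fold lower (adjusted p 3.19e-06). In neither did any dexamethasone mouse reach the saline range. Echs1, the matrix hydratase of the same pathway, had a log2 fold change of -0.03 (95% interval -0.15 to 0.09), an interval that does not reach the size of the Hadh change.

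Auxiliary enzymes handle double bonds. Of these Eci1 was 1.17-fold lower (adjusted p 0.0106), while Eci2, Decr1 and Ech1 had log2 fold changes of 0.03, -0.09 and -0.11 and no call. Ech1 passed as lower without saline library 5 (adjusted p 0.0452) or with quantile normalisation (adjusted p 0.0424). Acaa1a, the peroxisomal thiolase, was at 5.80, 5.77, 5.75 and 5.93 in saline and 5.43 to 5.73 (median 5.53) in dexamethasone mice, 1.18-fold lower without overlap (adjusted p 0.0021). It has a close copy in the genome, so its reads are uncertain. In 11 measured peroxisomal oxidation genes 2 rose and 4 fell, the falls including Decr2 (1.37-fold) and the oxidase Acox3 (1.17-fold).

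Electron transfer flavoprotein collects electrons from all acyl-CoA dehydrogenases, and its 3 genes all fell. Etfb, the beta subunit, was at 7.41, 7.33, 7.30 and 7.36 in saline and 6.70 to 7.03 (median 6.90) in dexamethasone mice, 1.38-fold lower without overlap (adjusted p 1.46e-05). A further gene model on the same strand covers 53.0% of its exons. Etfa, the alpha subunit, was 1.24-fold lower without overlap (adjusted p 0.000417). Etfdh, the oxidoreductase that hands the electrons to ubiquinone, was 1.15-fold lower (adjusted p 0.0215), and did not pass without saline library 1 (adjusted p 0.104) or 2 (adjusted p 0.0701). In the tricarboxylic acid cycle, which takes up the acetyl-CoA, 11 of 12 genes fell and 0 rose, those of smallest adjusted p being Dlst (1.34-fold), Mdh2 (1.42-fold) and Idh3a (1.49-fold).

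Uncoupling proteins of the inner membrane differed. Ucp3, the muscle form, was at 6.88, 6.62, 6.34 and 6.37 in saline and 5.42 to 6.39 (median 5.70) in dexamethasone mice. Only dexamethasone library 4 reached the saline range, the next highest being 5.92, and Ucp3 was 1.76-fold lower (log2 fold change -0.81 ± 0.14 SE, adjusted p 0.000226). Ucp2, the form of immune and other cells, was at 7.56, 7.83, 7.94 and 8.12 in saline and 7.87 to 8.03 (median 7.95) in dexamethasone mice. Its log2 fold change was 0.09 (95% interval -0.07 to 0.25), and it passed at 0.17 without saline library 5 (adjusted p 0.0438).

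Ratios of related genes within a library, which do not depend on how libraries are scaled, were compared for 7 pairs by an exact two-sided permutation test over the 715 assignments of libraries to groups, adjusted over the 7. Ppard over Ppara rose by 0.85 on the log2 scale, from 1.58 ± 0.24 to 2.43 ± 0.26 (SD, n = 4 and 9; exact permutation, adjusted p 0.00979), higher in 9 of 9 dexamethasone mice than in any saline mouse. Ucp2 over Ucp3 rose by 0.90 and Fabp5 over Fabp3 by 1.19, each with an exact permutation adjusted p of 0.00979 and 8 of 9 dexamethasone mice above all saline mice. In these pairs Ppard (log2 fold change -0.12), Ucp2 (0.09) and Fabp5 (0.23) were not called. Ppara (-0.97), Ucp3 (-0.81) and Fabp3 (-0.96) fell, so the ratios mostly repeat those falls. Ratios were not compared with a marker mean in the model. Cpt1a over Cpt1b rose by 1.06 (exact permutation, adjusted p 0.022), 8 of 9 again above all saline mice, but this ratio carries the few reads of Cpt1b and lost its call without saline library 1 (adjusted p 0.0557) or 3 (adjusted p 0.103). For Pdk4 over Pdk2, Acsl4 over Acsl1 and Plin2 over Plin5 the differences were 0.19, 0.03 and 0.05, each with an exact permutation adjusted p of 0.85. In these last pairs the spread between mice exceeded the difference.

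**Figure D3:**
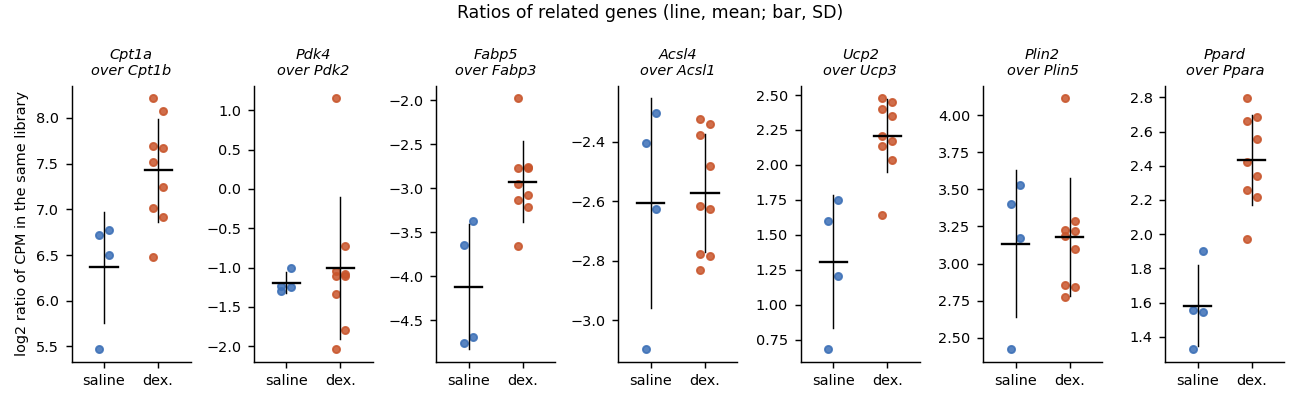
Log2 ratio of 2 related genes in each library, with 1 point per mouse (blue, saline; orange, dexamethasone), mean (line) and SD (bar); each panel has its own vertical scale. Ppard over Ppara separates fully, and a single dexamethasone mouse stands off in Pdk4 over Pdk2 (1.15) and in Plin2 over Plin5 (4.11).

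Some members varied among the 9 dexamethasone mice along with cell markers, of fibre or of fat. Each of the 43 was correlated with the mean of the mature fibre and of the adipocyte markers, neither of which holds a member, giving 86 exact permutation tests. Against the adipocyte mean, 6 members had an unadjusted p under 0.05 and 3 passed adjustment over the 86. Lipe had r = 0.96 (exact permutation, adjusted p 0.00628; rho 0.93, adjusted p 0.0226), and r = 0.92 without the 2 mice farthest from the median. Lpl had r = 0.95 (exact permutation, adjusted p 0.00628; rho 0.90, adjusted p 0.0291; 0.96 without those 2), and Acsl1 had r = 0.92 (exact permutation, adjusted p 0.00896; rho 0.92, adjusted p 0.0226; 0.80 without those 2). Angptl4, by contrast, had r = 0.13 (exact permutation, adjusted p 0.811; rho 0.30, adjusted p 0.708; 0.20 without those 2).

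Against the fibre mean, 13 members had an unadjusted p under 0.05 and 4 passed. Eci1 had r = 0.95 (exact permutation, adjusted p 0.00632; rho 0.92, adjusted p 0.0226; 0.88 without the 2 mice farthest from the median). Pdk2 had r = 0.94 (exact permutation, adjusted p 0.00658; rho 0.95, adjusted p 0.0226; 0.98 without those 2). Ppargc1a had r = 0.91 (exact permutation, adjusted p 0.0104; rho 0.92, adjusted p 0.0226; 0.86 without those 2). Etfa had r = 0.91 (exact permutation, adjusted p 0.0096), with a rho of 0.87 that did not pass (adjusted p 0.0554) and 0.82 without those 2. Hadh had r = 0.39 (exact permutation, adjusted p 0.543; rho 0.45, adjusted p 0.52; 0.31 without those 2).

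**Figure D4:**
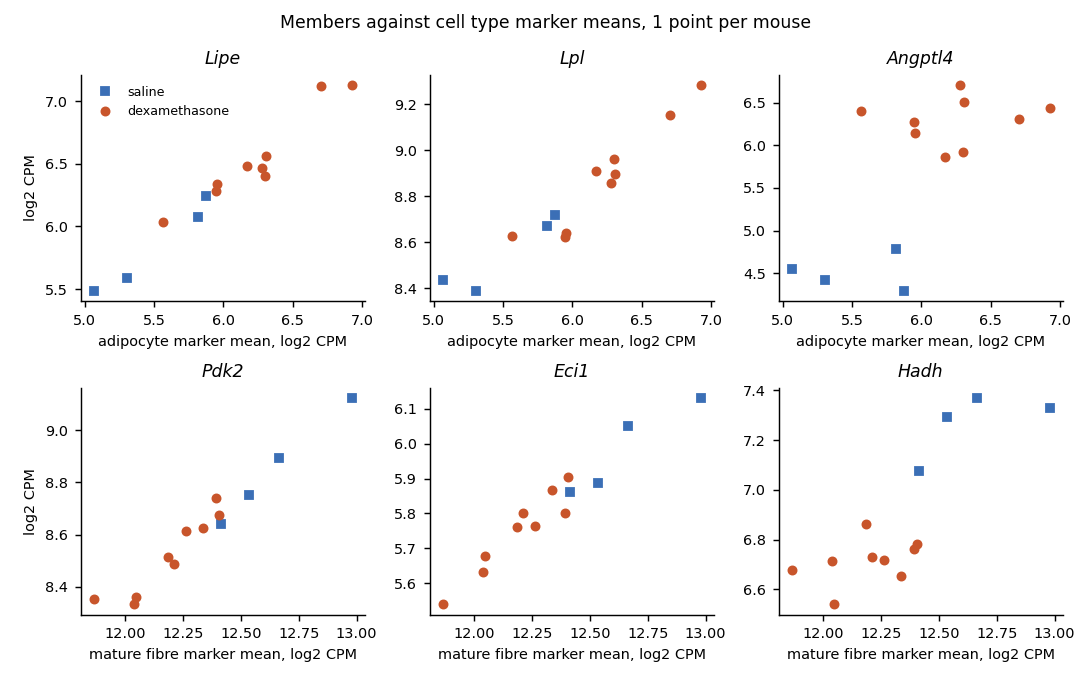
Log2 CPM of 6 members against the mean log2 CPM of adipocyte markers (upper row) or mature fibre markers (lower row), 1 point per mouse (blue squares, saline; orange circles, dexamethasone). Lipe, Lpl, Pdk2 and Eci1 of both groups lie along a single band, whereas for Angptl4 and Hadh the groups lie apart.

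The same marker means were entered as covariates in the comparison of the groups. The fibre mean was lower in every dexamethasone library than in any saline library, so it overlaps with group. With the fibre mean 9 members were called, 2 higher and 7 lower. Angptl4 (1.64, adjusted p 0.000104) and Plin5 (1.05, adjusted p 0.0117) were higher. Ppargc1a (-0.55), Ppara (-0.60), Fabp3 (-0.53), Acads (-0.47), Hadh (-0.43), Acaa2 (-0.42) and Etfb (-0.31) were lower, with adjusted p from 0.000254 to 0.0238. Pdk2, Eci1, Acadm, Acadvl and Etfdh then had log2 fold changes of 0.025 to 0.068 and no call. Ucp3 was at -0.54 (adjusted p 0.057). Cpt1a was at 0.21 (adjusted p 0.0999) and Plin2 at 0.37 (adjusted p 0.106). Lpl, Lipe, Pnpla2, Slc27a1, Acsl3, Acsl4, Hadha, Acaa1a and Etfa also lost their calls with the fibre mean.

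With the adipocyte mean instead, the members called higher went from 9 to 4, namely Angptl4 (1.72, adjusted p 2.11e-05), Acsl3 (0.53, adjusted p 0.00435), Plin2 (0.43, adjusted p 0.0383) and Cpt1a (0.31, adjusted p 0.0202). Lipe (0.050, adjusted p 0.674), Lpl (-0.036, adjusted p 0.747), Slc27a1 (0.057, adjusted p 0.729) and Pnpla2 (0.15, adjusted p 0.326) then had no call. Acsl4 was at 0.092 (adjusted p 0.291). The members called lower went from 16 to 11, since Pdk2 (-0.32, adjusted p 0.0708), Acadm (-0.27, adjusted p 0.0619), Etfdh (-0.21, adjusted p 0.104), Eci1 (-0.19, adjusted p 0.135) and Acadvl (-0.16, adjusted p 0.228) did not pass. Ppara and Ppargc1a were still lower at -0.96 and -1.02. Angptl4 rose, and Ppara, Ppargc1a, Fabp3, Acads, Hadh, Acaa2 and Etfb fell, with either marker mean in the model. The means were entered separately and no other marker list was entered, so the part of tissue composition in these changes was not tested.

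**Figure D5:**
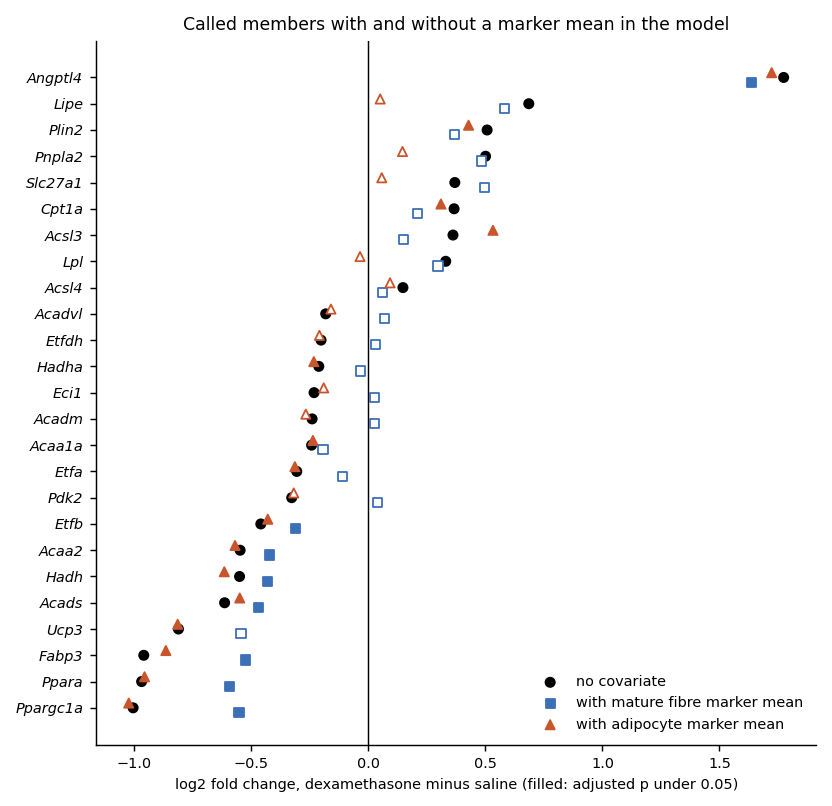
Log2 fold change of the 25 called members with no covariate (black circles), with the mature fibre marker mean (blue squares) and with the adipocyte marker mean (orange triangles); filled symbols have an adjusted p under 0.05. Lipe moves from 0.69 to 0.050 with the adipocyte mean and Pdk2 from -0.33 to 0.039 with the fibre mean, while Angptl4 stays between 1.64 and 1.77.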

How the data were processed

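Whole hamstring muscle was sampled from 13 mice, with 1 library per mouse, and groups came from the labels. Per the labels' protocols, libraries were stranded and polyadenylated. Per the submitters' processing notes, featureCounts 2.0.1, limma 3.50.1 and the build mm10 were used. The sources used here do not give the aligner, the annotation or how low genes were filtered. The authors' files hold log2 CPM per mouse and, for their comparison of the groups, deposited p-values with log2 fold changes. In that table deposited by the authors, 9 members were higher and 16 lower at an adjusted p under 0.05, and all 43 members had the same call here.

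Undoing the log2, with an offset of 0.5 reads, turned 100% of the deposited values into whole reads within 0.01. The table normalised without the excluded saline mouse was used (14911 genes). The other table held 14970 genes, and its 1 column for that mouse was not used. The number of reads per library over the 14911 genes, 25531487 to 34942266, sets the precision of low genes such as Cpt1b.

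Two-sided comparisons used limma 3.58.1 in R 4.3.3 with trended moderation, Benjamini-Hochberg adjusted over all genes. Folds are differences of mean log2 CPM, so those of low genes depend on the offset. Ratios were compared by exact permutation, whose smallest p is 0.0014 before adjustment. Exon lengths and overlaps came from GENCODE M21 (GRCm38, the assembly of mm10), promoters from RefSeq (GRCm38.p6). The steps were tested on simulated data. Figures used matplotlib 3.10.9 and Python 3.11.15.

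The members and lists were chosen with earlier results of these data known. Named genes were all members, up to 3 genes of smallest adjusted p per pathway list, and Cd36, Pparg and Klf15, except some that are not reported here; Pex11a and G0s2 of these lists were not analysed here. Values by mouse were given for a fixed set and for the first gene of each role by adjusted p. Alternatives were the other table, log2 of CPM plus 1, a low gene filter, median centring, quantile normalisation, no trend, voom on recovered reads, the mouse number as a block, the fibre marker mean as covariate, and libraries left out. The adipocyte covariate, saline 1 and dexamethasone 4 left out together, the marker correlations and the motif search were added after seeing the data.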

Additional observations from a re-analysis of the deposited data

Results flagged for a closer look

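In 9 of 100 groups of values (43 members and 7 ratios, saline and dexamethasone apart) 1 library stood off, meaning that its gap to the next library was a larger share of the group's range than Dixon's 95% critical value allows (0.829 for 4 libraries, 0.493 for 9). Chance flags about 1 in 20 groups, or 5 of 100. Pdk4 in dexamethasone library 4 was at 9.67 log2 CPM against 7.61 for the next (share 0.677), and its ratio over Pdk2 was 1.15 against -0.72 (share 0.587). The ratio of Plin2 over Plin5 in dexamethasone library 2 was 4.11 against 3.29 (share 0.616). Echs1 was low in dexamethasone library 5, at 6.15 against 6.32 (share 0.524), and Etfdh in dexamethasone library 2, at 6.26 against 6.42 (share 0.502). Among saline libraries, Ppargc1b was low in library 5, at 3.43 against 4.07 (share 0.929), Plin2 in library 1, at 6.12 against 6.36 (share 0.974), and Acot2 in library 2, at 2.91 against 3.12 (share 0.836). Cpt1b was high in saline library 3, at 0.27 against -0.83 (share 0.941).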

How the results depend on the processing

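Over all genes the comparison called 7173, and 3691 with the fibre marker mean as covariate or 4471 with the adipocyte mean. Members called higher were 9, and 2 with the fibre mean or 4 with the adipocyte mean. Members called lower were 16, and 7 with the fibre mean or 11 with the adipocyte mean. Leaving out 1 library at a time gave 6306 to 7173 genes, 6 to 10 members higher and 13 to 19 lower. Directions of called members were kept in the alternatives run, except that with the fibre mean Pdk2 was at 0.039, Acadvl 0.068, Acadm 0.026, Eci1 0.025 and Etfdh 0.030, and with the adipocyte mean Lpl was at -0.036; none of these was called, and the cause was not tested. The ratio of Cpt1a over Cpt1b missed the threshold with quantile normalisation (0.93) and with saline 3 and dexamethasone 4 both left out (0.75), and ranged from 0.76 to 1.20 with 1 library left out. The other called ratios kept their calls with any 1 library left out, at 0.98 to 1.44 for Fabp5 over Fabp3, 0.69 to 1.05 for Ucp2 over Ucp3 and 0.77 to 0.96 for Ppard over Ppara. Mouse numbers occur in both groups for 8 libraries. Deviations of same-numbered mice from their group means correlated at -0.070 to 0.12. Saline 1 and 5 matched best with the dexamethasone library of their own number, while saline 2 matched best with 5 and saline 3 with 2. Whether same-numbered mice share more than a number was not tested. With the replicate block on these 8, the ratios were 1.22 for Cpt1a over Cpt1b, 1.50 for Fabp5 over Fabp3, 1.05 for Ucp2 over Ucp3 and 0.97 for Ppard over Ppara, all at an exact permutation adjusted p of 0.219; with 4 pairs that test cannot go below 0.125 and so cannot pass. The block kept 39 of 43 member calls; Acsl4 lost its call, and Acot2 (-0.39, adjusted p 0.017), Hadhb (-0.23, adjusted p 0.0215) and Ech1 (-0.19, adjusted p 0.0302) gained one by limma. On the same 8 libraries without the block Acsl4 lost its call, and Acot2 (adjusted p 0.0104) and Ech1 (adjusted p 0.0364) passed. The other table, log2 of CPM plus 1 and voom kept all 43, and the low gene filter kept 42 of 42, Cpt1b being dropped. Few reads limit Cpt1b, and p-values measure the spread between these mice alone.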
